A study of Sus scrofa with 14 samples.

Results

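TLK1 and TLK2 were the host genes of 24 of the 6720 circular RNAs (circRNAs) listed in embryonic pig brain, 11 from TLK1 and 13 from TLK2. They were taken as every line whose host field was TLK1, the host of the circRNA at chr15:86639052-86671532, or TLK2. The genes were picked with the reads of TLK1 circRNAs in forebrain and cortex and the end they share in view, so both are described below and not tested. Of the 24 circRNAs, 7 from each gene appear both in the table of forebrain and cortex (24 lines of 5585) and in the table of 5 brain regions (14 lines of 3967), and no circRNA of these genes appears in the regions table alone. For 1 TLK2 line of the first table the stated total was 5 reads and its libraries held 4, and that line is left out of sums. RNA longer than 200 nt, depleted of ribosomal RNA, was sequenced from 14 dissected fetal pig brain samples. The cortex series began with forebrain at E23 (embryonic day 23) and went on with 5 cortex samples, taken at E42, E60, E80, E100 and E115. Hippocampus, cerebellum, brain stem and basal ganglia were sampled at E115 and E60. The labels give no breed, sex, treatment or number of animals. Each group was 1 library with no replicate, so the 95% intervals given here cover counting error only.

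The Tousled-like kinases are serine/threonine kinases of the nucleus, named after the Tousled gene of Arabidopsis. They are most active while DNA is replicated, and they phosphorylate the histone chaperone ASF1, which hands new histones to the machinery that packs replicated DNA into nucleosomes. The vertebrate paralogues TLK1 and TLK2 can bind each other and have overlapping functions, and in humans loss of 1 copy of TLK2 causes a neurodevelopmental disorder. In a circRNA the donor of an exon has been spliced back to an upstream acceptor, and the read that crosses this backsplice junction identifies the circle. Which exons a circle keeps cannot be read from its junction alone. A junction end shared by several circRNAs marks a site that was joined to several partners.

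Libraries of the cortex series held 21.4 to 58.8 M reads, of which 8098 to 17336 were circRNA reads. The 8 libraries from other regions had 9.67 to 37.7 M reads with 518 to 6056 circRNA reads. Here and below, the circRNA reads of a library are those of lines whose reads add up. In brain stem these were 518 of 808 at E60 and 5003 of 5343 at E115. Levels are reads per M library reads (RPM), and the host gene is given as the authors' FPKM (fragments per kb of transcript and M of mapped fragments). Because the RNA was depleted of ribosomal RNA and not selected for poly(A), the FPKM of a gene holds reads from linear and circular transcripts together. In bulk tissue, fewer cells of a type and less RNA per cell cannot be told apart. The FPKM columns of the regions table went against their headings. Over 1395 hosts, the columns headed hippocampus at E115 and E60 correlated with the cortex columns of the same days in the other table at r = 0.970 and 0.959 (Pearson, across genes), while the columns headed cortex correlated with them at 0.685 and 0.683. The read columns showed no such mismatch. FPKM columns of the regions table are therefore named by their headings. The circRNA level per host level is described for the forebrain and cortex table, and for the regions table only as an alternative in the last section. In the forebrain and cortex table FPKM was listed only for genes that host a circRNA. FLT1, of endothelial cells, was thus the only one of 16 markers of vessels, blood, microglia, meninges and choroid plexus with a value, at 1.25 to 15.2, and none of 5 astrocyte and 7 oligodendrocyte markers had one.

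TLK1 gave its circRNAs almost entirely from 1 splice site. TLK1 lies on the minus strand of chromosome 15 (build Sscrofa10.2), so the higher coordinate of a junction is its acceptor side and the lower one its donor side. Of the 11 circRNAs in the forebrain and cortex table, 9 ended at 86671532, and these held 1732 of the gene's 1742 reads, or 99.4% (98.9 to 99.7%, Clopper-Pearson). In the 5 regions 6 of 7 circRNAs ended there, with 837 of 839 reads (99.8%). The reads from this single acceptor were spread over many donors. The gene used 10 donor ends and 3 acceptor ends over 79941 bp.

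The 4 TLK1 circRNAs with most reads are called circles 1 to 4 here. Circle 1, chr15:86639052-86671532, spans 32481 bp and had 722 reads, the fifth highest count of the forebrain and cortex table (rank 5). Circle 2, chr15:86622619-86671532, spans 48914 bp and had 667 reads (rank 7). Both were thus among the most abundant circRNAs of the series, and circle 2 carries on 16433 bp past the donor of circle 1. Circle 3, chr15:86637917-86671532, spans 33616 bp, only 1135 bp more than circle 1, and had 205 reads (rank 42). Circle 4, chr15:86607064-86671532, spans 64469 bp and had 84 reads (rank 171).

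The other 5 TLK1 circRNAs with this acceptor were far rarer. The longest TLK1 circle, with its donor at 86591592, spans 79941 bp and had 24 reads. The donors at 86614285, 86622429 and 86609169 had 15, 8 and 3 reads. The donor at 86622429 lies 190 bp downstream of that of circle 2. The shortest circle, chr15:86671414-86671532, spans 119 bp, and its 4 reads were all from the E23 forebrain. Only 2 circRNAs used another acceptor. One was chr15:86615927-86619319 with 8 reads, 2 in each of the cortex libraries at E42, E60, E80 and E100. The other was chr15:86637917-86639123, with 2 reads in the E60 cortex. Its donor is that of circle 3, and its acceptor lies 72 bp upstream of the donor of circle 1, counting both ends.

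TLK2 lacked such a dominant site. It lies on the minus strand of chromosome 12, and its 13 circRNAs held 202 reads from 7 acceptor ends and 9 donor ends over 70846 bp. The acceptor at 16101827 held 51.5% of the reads (44.4 to 58.6%), that at 16063733 held 30.2% and that at 16071225 held 9.90%. The most abundant TLK2 circRNA, chr12:16098936-16101827, spans 2892 bp and had 86 reads (rank 169). The next was chr12:16048530-16063733, with 15204 bp and 49 reads, and it shares no end with the first. The third, chr12:16085352-16101827, had 18 reads over 16476 bp. It shares its acceptor with the first. The remaining TLK2 circRNAs had 3 to 11 reads each. The donor at 16030982 was joined to 3 different acceptors. A donor at 16053861 and an acceptor at 16054013 lie 153 bp apart, counting both ends.

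**Figure D1:**
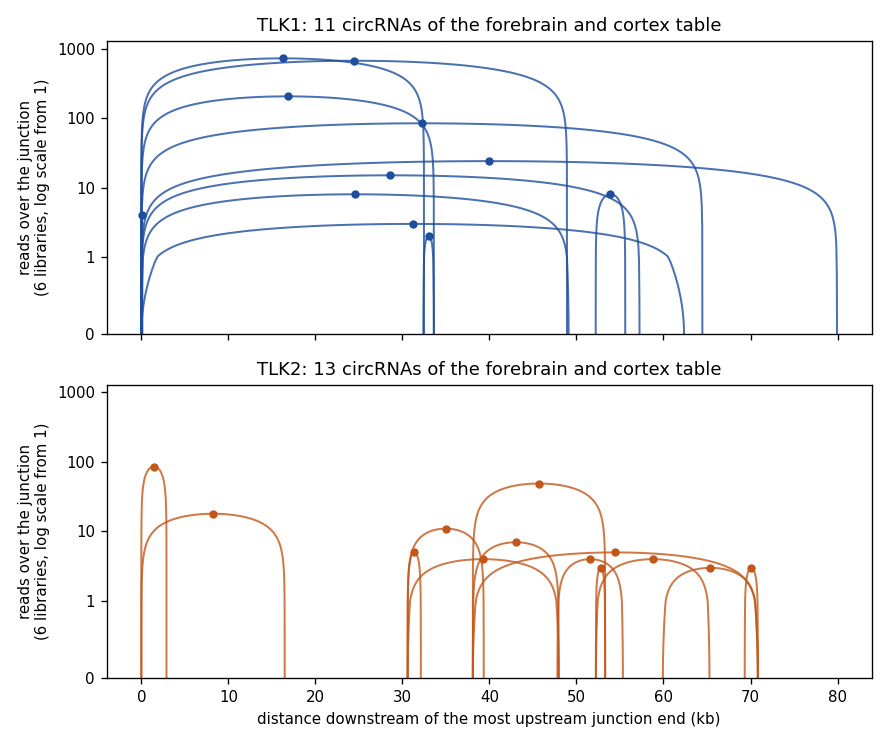
Backsplice junctions of TLK1 (above) and TLK2 (below) in the forebrain and cortex table. The horizontal axis is the distance in kb downstream of the gene's most upstream junction end, each arc joins the ends of 1 circRNA, and the height of its dot is its number of reads summed over 6 libraries (log scale from 1 read). TLK1 arcs rise from 1 common end at the left, with 9 of 11 circRNAs and 99.4% of the reads, while TLK2 arcs start at 7 acceptor ends.

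The paralogues were set against other hosts with at least 5 circRNAs and 50 reads. None of 117 such hosts in the forebrain and cortex table had a higher share of its reads at 1 acceptor than TLK1, and the median host had 66.3% there. Among 70 such hosts of the regions table, 1 was higher. The donor side of TLK1 was unremarkable by this measure. Its top donor held 41.4% of the reads, against 55.6% for the median host, and 88 of 117 hosts were higher. TLK2 had 52.8% of its reads at its top acceptor among lines that added up, and 76 of 117 hosts were higher. These are descriptions of genes chosen for their reads and carry no test.

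TLK1 circles were long. Their genomic spans had a median of 48914 bp, against 9873 bp for TLK2 and 9662 bp for all lines of the forebrain and cortex table. Spans can include introns, so they are not circle lengths. Of the TLK1 junction reads, 60.6% were listed as unique, against 77.2% for TLK2 and 77.4% for all lines. The share was lowest for circle 1, at 55.5%.

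The level of TLK1 circRNAs in the cortex series was highest at E60. Circle 1 had 178, 95, 166, 76, 111 and 96 reads at E23, E42, E60, E80, E100 and E115, which is 3.03, 3.56, 7.75, 2.85, 2.29 and 1.78 RPM. Circle 2 had 131, 94, 160, 70, 128 and 84 reads at the same stages, or 2.23, 3.52, 7.47, 2.63, 2.64 and 1.56 RPM. Both were highest in the E60 cortex and lowest in the E115 cortex, and the counting intervals at E60 (6.62 to 9.03 and 6.36 to 8.72 RPM) lay above those of every other stage. Circle 3 had 35, 28, 39, 23, 43 and 37 reads, or 0.595, 1.05, 1.82, 0.864, 0.886 and 0.685 RPM. It was highest at E60 too, but its lowest value was that of the E23 forebrain. Circle 4 had 19, 16, 9, 10, 18 and 12 reads, or 0.323, 0.599, 0.420, 0.376, 0.371 and 0.222 RPM. Its highest value was at E42, and all 6 intervals overlapped.

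The leading TLK2 circRNA, chr12:16098936-16101827, had 21, 27, 21, 6, 6 and 5 reads over the 6 stages, or 0.357, 1.01, 0.981, 0.225, 0.124 and 0.0926 RPM. It was high at E42 and E60 alike. The other 12 TLK2 circRNAs had at most 14 reads in any library of the series.

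**Figure D2:**
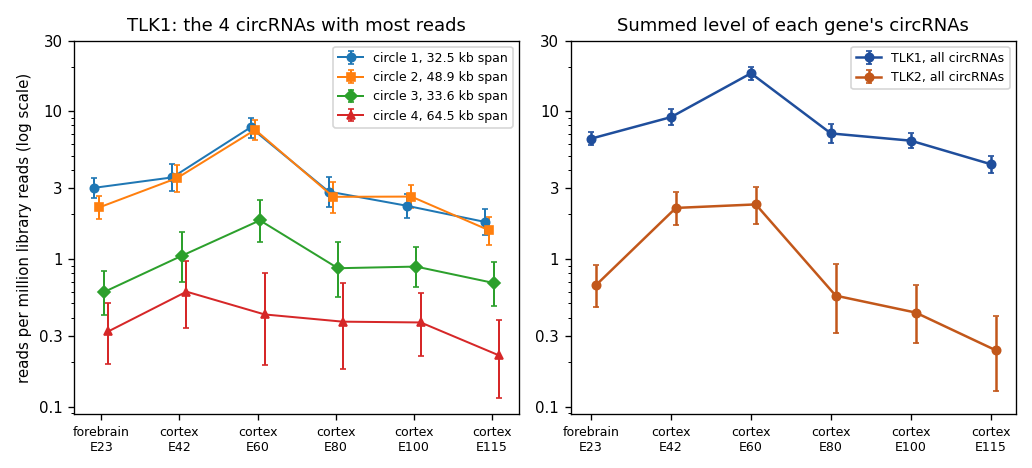
Left, levels of the 4 TLK1 circRNAs with most reads in 1 forebrain and 5 cortex libraries, in reads per M library reads on a log scale. Right, the summed level of each gene's circRNAs, with bars for 95% exact Poisson intervals (counting error only). Circles 1 and 2 run side by side and are highest at E60, circle 4 is highest at E42, and the TLK2 sum is at 2.21 and 2.34 RPM at E42 and E60.

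Summed over the gene, TLK1 circRNAs had 6.51, 9.10, 18.03, 7.06, 6.31 and 4.37 RPM from E23 to E115. From high to low the order was E60, E42, E80, E23, E100 and E115. The intervals of E80 (6.09 to 8.14 RPM), E23 (5.87 to 7.19) and E100 (5.62 to 7.05) overlapped, so these neighbours did not differ beyond counting error. The interval of E42 (7.995 to 10.32) also overlapped that of E80, at its edge. No ratio of E42 to E80 was taken, and overlapping intervals do not show that levels are alike. TLK2 circRNAs had 0.663, 2.21, 2.34, 0.563, 0.433 and 0.241 RPM. E42 and E60 did not differ beyond counting error for TLK2, with a log2 ratio of E60 to E42 of 0.08 (-0.49 to 0.65).

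The paralogues differed in the step at which their level stepped up most. For TLK1 the log2 ratio of E42 cortex to E23 forebrain was 0.48 (0.25 to 0.72) and that of E60 to E42 cortex was 0.99 (0.75 to 1.22). For TLK2 it was 1.74 (1.13 to 2.36) between E42 and E23. All circRNA reads together gave 1.18 and 0.33 at these steps. A change of 2-fold or more upwards between E42 and E23 was seen in 53.5% of 312 circRNAs with at least 20 reads in the pair and in 2 of 6 TLK circRNAs, which were the leading TLK2 circRNAs, and 5.45% and 0 of 6 were lower. Between E60 and E42 it was seen in 25.6% of 332 circRNAs and in 2 of 6 TLK circRNAs, which were TLK1 circles 1 and 2, and 10.5% and 0 of 6 were lower. The ratio of TLK1 to TLK2 reads, given below, had intervals at E42 that overlapped neither those at E23 nor those at E60. E23 was sampled as forebrain and E42 as cortex, so stage and tissue cannot be told apart at the first step.

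After E60 both genes' circRNAs were lower. At E80 against E60 the log2 ratio was -1.35 (-1.61 to -1.10) for TLK1 and -2.05 (-2.99 to -1.20) for TLK2, beside -1.41 for all circRNA reads. All 4 TLK circRNAs with at least 20 reads in this pair were at least 2-fold lower, as were 68.6% of 245 circRNAs, and none was 2-fold higher, against 3.67% of them. Between E100 and E80 and between E115 and E100 none of 4 TLK circRNAs differed 2-fold, against 16% and 13.4% of circRNAs lower and 12.3% and 4.17% higher. At E115 against E60 the log2 ratio was -2.04 (-2.28 to -1.81) for TLK1 and -3.28 (-4.28 to -2.38) for TLK2. Of 5 TLK circRNAs, 4 were at least 2-fold lower at E115, as were 71.2% of 299 circRNAs, whose median log2 ratio was -2.06, and 8.36% were higher. The exception was circle 4, at -0.92 (-2.29 to 0.51). These shares are given as background only, since the genes were chosen on these libraries.

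Relative to all circRNA reads, TLK1 was nearly level over the series except at E42. It took 2.29, 1.42, 2.23, 2.32, 2.33 and 2.02% of a library's circRNA reads from E23 to E115, and the interval at E42 (1.24 to 1.60%) lay below the other 5. TLK2 took 0.233, 0.344, 0.288, 0.185, 0.160 and 0.111%. The ratio of TLK1 to TLK2 circRNA reads was 9.82, 4.12, 7.72, 12.5, 14.6 and 18.2. It was lowest at E42 (3.09 to 5.57) and highest at E115 (10.4 to 34.6).

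The TLK1 circRNA level varied together with the FPKM of the gene. TLK1 had 36.8, 67.8, 124.9, 41.6, 46.2 and 34.96 FPKM from E23 to E115, highest at E60 like its circRNAs. Its circRNA RPM per host FPKM was 0.177, 0.134, 0.144, 0.170, 0.136 and 0.125. The highest of these was 1.41 times the lowest, while the circRNA level itself varied 4.12-fold and the FPKM 3.57-fold. Compared were 310 hosts with at least 50 circRNA reads, and with a read and an FPKM of at least 1 in all 6 libraries. Only 6 of them had a smaller range, and the median host's range was 5.35-fold. Ranges shrink with depth, and among the 47 hosts with at least 200 reads the median was 2.39-fold and the same number, 6, was smaller.

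TLK2 circRNAs varied more than their host. TLK2 had 15.7, 21.8, 12.9, 8.34, 9.39 and 8.11 FPKM, highest at E42. Its circRNA RPM per FPKM was 0.0422, 0.101, 0.181, 0.0676, 0.0461 and 0.0297, a 6.09-fold range, and 175 of 310 hosts varied less. The value was highest at E60, as for the median of hosts with at least 50 circRNA reads and an FPKM of at least 1. That median was 0.0160, 0.0239, 0.0364, 0.0190, 0.0159 and 0.0133. At E60 the paralogues were close in this measure, at 0.144 for TLK1 and 0.181 for TLK2, although their FPKM values differed 9.67-fold. Both genes gave many circRNA reads for their FPKM. Between 5 and 29 of 330 to 336 hosts lay above TLK1 in a library, and between 20 and 70 lay above TLK2. The genes were picked with TLK1 circRNA reads of these libraries in view, so these places are descriptions and carry no test.

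**Figure D3:**
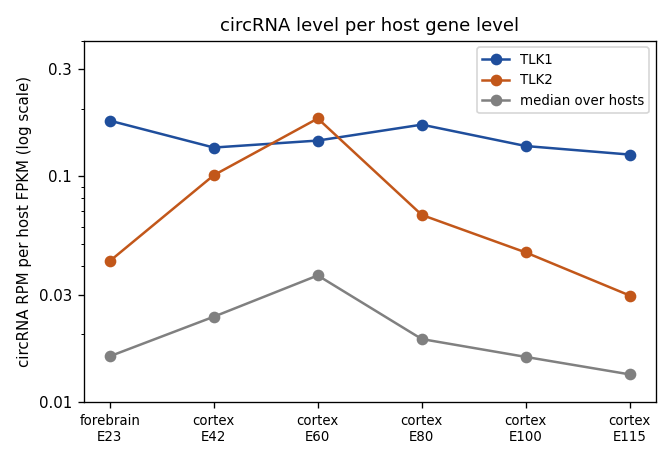
Summed circRNA level (RPM) divided by host gene FPKM over 6 libraries of forebrain and cortex, on a log scale, for TLK1, TLK2 and the median of 330 to 336 hosts. These hosts had at least 50 circRNA reads over the series and an FPKM of at least 1 in the library. No error bars are drawn because the FPKM values come without errors. TLK1 stays between 0.125 and 0.177, and TLK2 and the median are highest at E60.

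The trend of host FPKM over day was tested for all 2242 hosts with limma on log2(FPKM + 1), in which 9.9% of hosts were called higher and 14.6% lower at an adjusted p under 0.05. The median log2 change over the span from E23 to E115 was -0.41. TLK1 had a log2 change of -0.50 over the span (SE 0.69, adjusted p = 0.607), which did not pass the test. A straight line does not describe a gene that is highest in the middle, and without the E23 forebrain the change was -1.64 (adjusted p = 0.0874). TLK2 had a log2 change of -1.18 (SE 0.42, adjusted p = 0.0676), which missed the threshold also. The residual is the scatter of 6 libraries around a line and not a spread between animals.

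Genes that work with these kinases are given from 2 lists. Of 25 genes for TLK substrates and histone deposition, 6 had an FPKM in the forebrain and cortex table. By limma, 2 of the 6 fell over the stages and none rose, beside 14.6% of all hosts that fell and 9.9% that rose. RBBP4, a histone-binding subunit of several chromatin complexes, fell by 1.85 on the log2 scale (adjusted p = 0.0201), and CHD1, a remodelling ATPase, fell by 1.66 (adjusted p = 0.0258). NAP1L1, a histone chaperone, had a change of -1.59 that missed the threshold (adjusted p = 0.0514). The median of the 6 was -1.24, against -0.41 for all hosts. Of 30 genes for DNA replication and its checkpoint, 8 had an FPKM, and 4 fell and none rose, beside the same 14.6% and 9.9% of all hosts. Their median was -1.38, against -0.41 for all hosts. MCM2, a subunit of the replicative helicase, fell by 4.52 (adjusted p = 0.00294), ATR, the kinase that senses stalled forks, fell by 1.96 (adjusted p = 0.0123), and ORC5, a subunit of the origin recognition complex, fell by 1.72 (adjusted p = 0.0253). NEK1, a kinase gene, was the fourth, with a fall of 1.36 (adjusted p = 0.0359). ASF1A and ASF1B, the kinases' direct substrates, were not among the hosts with an FPKM.

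Markers of dividing and of mature cells moved with stage as well. TOP2A and BUB1B, which act in mitosis, fell by 6.05 and 4.11 on the log2 scale (limma, adjusted p = 0.00100 and 0.00294). They were 2 of the 3 progenitor markers with an FPKM, beside 14.6% of all hosts that fell. The third, SOX2, had a change of -0.15 (limma, adjusted p = 0.893). The summed FPKM of the 3 was 261.9, 231.3, 47.7, 37.2, 59.8 and 39.5 from E23 to E115. Of 7 neuronal markers, SYT1, SYN2 and SYN1, all of synaptic vesicles, rose by 5.50, 6.15 and 5.83 (limma, adjusted p = 0.00267, 0.000284 and 0.000263), beside 9.9% of all hosts that rose. MAP2, RIMS1 and RIMS2 had changes of 2.37, 2.14 and 1.89 that did not pass (limma, adjusted p = 0.0802, 0.102 and 0.143). DCX went the other way, at -0.37 (limma, adjusted p = 0.839). The 7 summed to 53.5, 522.6, 397.3, 464.9, 725.0 and 787.9 FPKM from E23 to E115. FLT1 rose by 2.36. The part of cell makeup in the TLK values was not tested.

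Outside the cortex, TLK1 circRNAs were present in all 8 libraries, at lower RPM than in the cortex of the same day. TLK1 was picked with its cortex reads in view, so this is a description. In cortex all circRNA reads gave 685 RPM at E60 and 149 at E115, against 39.2 to 183 and 125 to 386 elsewhere. TLK1 took 2.58% of circRNA reads in the E60 cortex and 0.661 to 1.93% elsewhere, and 2.92% and 0.611 to 1.81% at E115. The share intervals of the E60 brain stem and the E115 basal ganglia overlapped those of the cortex. At E115 and E60 TLK1 circRNAs had 22 and 23 reads in basal ganglia, or 2.27 and 2.20 RPM. In brain stem they had 87 reads at E115 and 10 at E60, or 2.31 and 0.757 RPM. In cerebellum they had 37 and 22 reads, or 2.36 and 2.14 RPM, and in hippocampus 12 and 13 reads, or 1.05 and 0.487 RPM. The cortex of the same table had 4.35 RPM at E115 and 17.7 RPM at E60. The order from high to low was thus the cortex at E60, the cortex at E115, then 5 libraries between 2.14 and 2.36 RPM whose intervals overlapped. The hippocampus at E115 (0.542 to 1.83 RPM), the brain stem at E60 and the hippocampus at E60 came last and overlapped among themselves. The interval of the E115 hippocampus also overlapped those of the basal ganglia and the cerebellum on both days. Of the 5 libraries, only the E115 brain stem had an interval wholly above that of the E115 hippocampus. The brain stem at E60 (0.363 to 1.39 RPM) overlapped only the cerebellum at E60 (1.34 to 3.24 RPM) among the 5.

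TLK2 circRNAs were close to the limit of detection in these regions. At E115 and E60 they had 0 and 4 reads in basal ganglia, 2 and 0 in brain stem, 7 and 1 in cerebellum, and 2 and 4 in hippocampus. The 0 reads in the E115 basal ganglia allow up to 0.310 RPM and those in the E60 brain stem up to 0.227 RPM, so neither library shows that TLK2 circRNAs were absent. In the cortex of this table TLK2 had 13 reads at E115 and 46 at E60. The brain stem at E115 had 87 TLK1 reads beside its 2 TLK2 reads, a ratio of 43.5 (11.7 to 364.9). In the cerebellum the ratio was 5.29 (2.33 to 14.1) at E115 and 22 (3.56 to 908.0) at E60, from 1 TLK2 read.

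**Figure D4:**
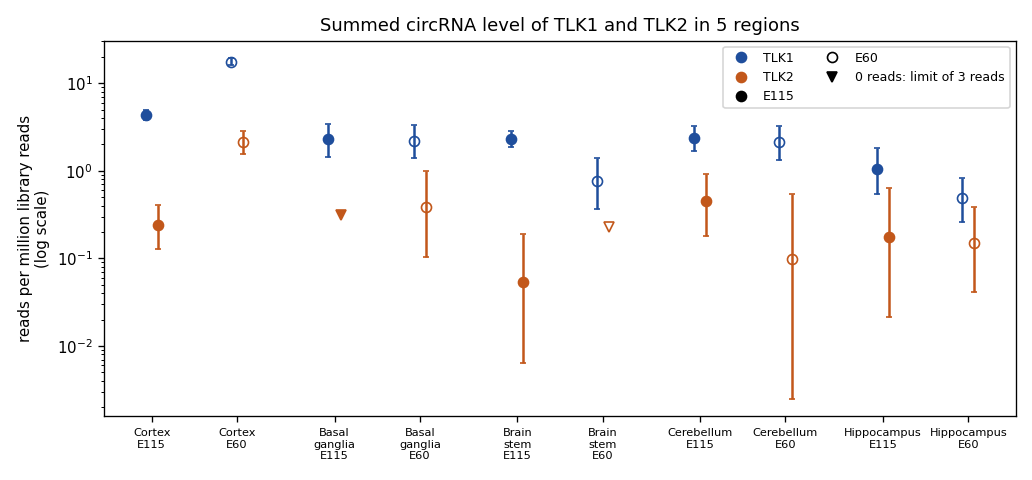
Summed circRNA level of TLK1 and TLK2 in 5 regions, E115 (filled) left of E60 (open), in reads per M library reads on a log scale. Bars are 95% exact Poisson intervals for counting error, and triangles stand at the limit of 3 reads where no read was found. TLK1 lies above TLK2 in all 10 libraries, and E115 lies below E60 for TLK1 in the cortex and above it in the brain stem.

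Between the days, TLK1 circRNAs differed beyond counting error in 2 of 5 regions. The log2 ratio of E115 to E60 was -2.02 (-2.26 to -1.78) in cortex and 1.61 (0.66 to 2.72) in brain stem. It was 0.05 (-0.87 to 0.96) in basal ganglia, 0.14 (-0.66 to 0.97) in cerebellum and 1.11 (-0.16 to 2.36) in hippocampus. All circRNA reads together gave -2.20 in cortex, 1.76 in brain stem, -0.54 in basal ganglia, 1.35 in cerebellum and 1.03 in hippocampus. The brain stem value depends on the lines kept, since lines that add up hold 518 of 808 circRNA reads of the E60 brain stem. In 4 regions TLK1 thus stayed within its counting error of the total. In the cerebellum it did not: TLK1 had 0.611% of the circRNA reads at E115 and 1.41% at E60, a log2 ratio of -1.21 (-2.01 to -0.38). In brain stem 3 of 3 TLK circRNAs with at least 20 reads in the pair were at least 2-fold higher at E115, as were 78.9% of 38 circRNAs. In cerebellum the only one, circle 2, had a log2 ratio of 0.39 (-0.77 to 1.65), while 58.3% of 48 circRNAs were at least 2-fold higher. For the cortex of this table, 4 of 5 were at least 2-fold lower, as were 80.8% of 208 circRNAs. None was 2-fold or more the other way, against 4.81% of circRNAs higher in cortex, 2.08% lower in cerebellum and 0% lower in brain stem. Basal ganglia and hippocampus had no TLK circRNA with 20 reads in the pair.

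The change with day was tested in the 4 regions outside the cortex, whose reads were not those the genes were picked on. Regions took the place of replicates, so the SE and p-values reflect disagreement between regions and not a spread between animals. With edgeR's quasi-likelihood test, region as a block and 165 circRNAs tested, 1 (0.606%) was called higher at E115 and 0 lower, with 19 at an unadjusted p under 0.05. The called one came from SYN2, named here after its value was seen. Circle 1 had a log2 change of 1.30 (SE 0.96, adjusted p = 0.555), circle 2 of 0.34 (SE 0.82, adjusted p = 0.842) and circle 3 of 1.25 (SE 0.90, adjusted p = 0.555), beside a median of 1.13 over the 165. None passed the test. The sign of circle 2 was negative, at -0.46, with libraries scaled by TMM. No other TLK1 circRNA and no TLK2 circRNA had the 20 reads needed.

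The share of circle 3 pooled over the libraries outside the cortex lay above that in the forebrain and cortex series. In the forebrain and cortex series circles 1 and 2 had nearly equal reads, with circle 1 at 57.6, 50.3, 50.9, 52.1, 46.4 and 53.3% of the 2 from E23 to E115. The interval at E23 (51.9 to 63.2%) was the only one to lie above an equal share. These intervals count every read, and each of the 2 circles had 401 reads listed as unique over the series. Circle 3 made up 10.17, 12.9, 10.7, 13.6, 15.2 and 17.1% of the 3 circles, or 12.9% (11.3 to 14.6%) of 1594 reads pooled. In the 8 libraries outside the cortex circle 3 made up 32.7% (26.3 to 39.6%) of 202 reads pooled, 83 of them from the E115 brain stem. By day it had 35.1% (27.5 to 43.4%) in the 4 libraries at E115 and 25.9% (14.96 to 39.7%) in the 4 at E60. Pooling adds libraries of different regions, so this interval leaves out the differences between them.

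Among single libraries, the circle 3 share ranged from 55% to 10%. Circles 1, 2 and 3 had 5, 4 and 11 reads in the E115 basal ganglia, which puts circle 3 at 55% (31.5 to 76.9%), and 5, 9 and 5 reads in the E60 basal ganglia, where it was at 26.3% (9.15 to 51.2%). They had 25, 29 and 29 reads in the E115 brain stem, where circle 3 was at 34.9% (24.8 to 46.2%), against 96, 84 and 37 reads in the E115 cortex. The E60 brain stem had 1, 4 and 3 reads, with circle 3 at 37.5% (8.52 to 75.5%). Circle 3 was at 29.4% in the cerebellum on both days (15.1 to 47.5% at E115 and 10.3 to 55.96% at E60), and at 18.2% and 10% in the hippocampus at E115 and E60. In both basal ganglia and brain stem at E115 the interval for circle 3 lay above that of the E115 cortex (12.3 to 22.7%), and in the other 6 libraries it overlapped that of the cortex of the same day.

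The cerebellum also had few reads of circle 1. Circles 1, 2 and 3 had 4, 20 and 10 reads there at E115, and 2, 10 and 5 reads at E60. Circle 1 was 16.7% of circles 1 and 2 on both days, with an interval of 4.74 to 37.4% at E115 that lay below that of the E115 cortex (45.8 to 60.8%). At E60 its interval of 2.09 to 48.4% overlapped that of the E60 cortex (45.4 to 56.5%), which does not show that the shares were alike. The hippocampus had 5, 4 and 2 reads at E115 and 3, 6 and 1 at E60, too few to set it apart from the cortex. Circle 4 had 12 and 9 reads in the cortex at E115 and E60 and 1 to 4 reads in each other library. These shares were singled out after their values were seen and are given without a test, with 1 library each.

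**Figure D5:**
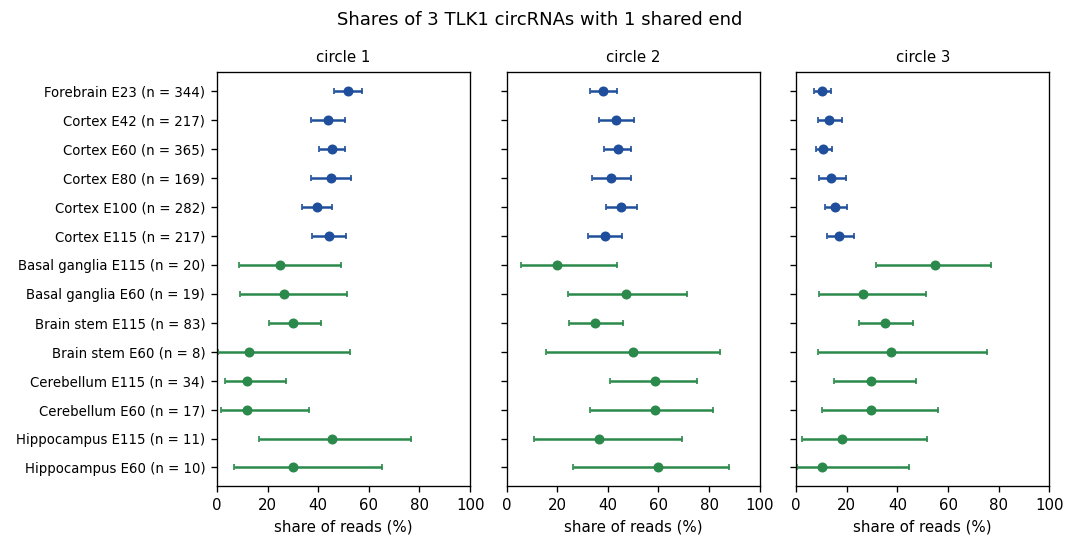
Share of each of circles 1, 2 and 3 among their summed reads (horizontal axis, %), in 6 libraries of forebrain and cortex (blue) and 8 of other regions (green), with the number of reads in brackets. Bars are 95% Clopper-Pearson intervals. Circle 3 lies between 10.17 and 17.1% in the forebrain and cortex libraries and at 34.9 and 55% in brain stem and basal ganglia at E115.

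Host FPKM in the regions table showed no change of either gene with day that passed the test. For TLK1 it was 35.7 and 24.8 FPKM at E115 and E60 in basal ganglia, 31.1 and 13.2 in brain stem, 34.3 and 32.7 in cerebellum, 24.6 and 26.9 in the columns headed cortex, and 27.1 and 98.9 in those headed hippocampus. The E60 column headed hippocampus was thus far above the rest. The E60 brain stem column was low over hosts in general, with a median log2 difference of -1.51 from the E60 cortex of the other table, against -0.54 to -0.20 for the other E60 columns. For TLK2 the values were 5.27 and 5.40 in basal ganglia, 4.11 and 2.19 in brain stem, 4.93 and 6.61 in cerebellum, 4.98 and 7.98 under cortex, and 5.96 and 9.68 under hippocampus. With limma and region as a block, 9.82% of 1731 hosts were called higher at E115 and 1.5% lower, with a median log2 change of 0.27. TLK1 had -0.04 (SE 0.41, adjusted p = 0.961) and TLK2 -0.18 (SE 0.31, adjusted p = 0.750). The block makes this fit indifferent to which name a pair of columns has. Its residual is disagreement between regions in their change with day, and not a spread between animals. Without the columns headed hippocampus TLK1 had 0.40, and without both doubtful pairs TLK1 had 0.58 and TLK2 0.10.

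The paralogues' hosts were also compared directly, with regions and not animals as the units. The log2 ratio of TLK1 to TLK2, as log2 of (FPKM + 1), differed between the days by 0.46 in the columns headed cortex, 0.54 in basal ganglia, 0.49 in brain stem, 0.42 in cerebellum and -1.21 in those headed hippocampus, each as E115 minus E60. The difference was above 0 in 4 of 5. The mean was 0.14 (exact sign-flip test, 2-sided, p = 0.75, where 5 pairs can give no less than 0.063). Without the columns headed hippocampus it was 0.48 (exact p = 0.125, the smallest that 4 pairs can give). In the same pairs none of the 7 measured genes for TLK substrates and histone deposition and none of the 7 for replication and checkpoint passed the limma test, and their median changes were 0.13 and 0.42. Among markers in those columns, TOP2A and BUB1B fell by 1.33 and 1.06 (2 of 4 progenitor markers), DCX of immature neurons fell by 2.83 and SYN2 rose by 1.56 (6 neuronal markers), and SLC1A3 of astrocytes and FLT1 rose by 2.35 and 1.54, each the only one of its list. Of all hosts, 9.82% were called higher and 1.5% lower in this fit. The part of these marker shifts in the TLK values was not tested.

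Profiles were compared by the root mean square distance between log2 levels, each centred on its own mean. Over the 6 libraries of forebrain and cortex, circle 2 was the nearest to circle 1 of 310 circRNAs, at 0.19, against a median of 0.79. It was followed by circRNAs of HEATR5A (chr7:73042261-73051146) at 0.20, KANSL1L (chr15:124628985-124720160) at 0.25 and FAM188A (chr10:50688302-50702358) at 0.27. Circle 3 came in place 15 at 0.35, circle 4 in place 57 at 0.54 and the leading TLK2 circRNA in place 112 at 0.67. Over the 10 libraries of the regions table circle 2 was again nearest of 125, at 0.90, followed by circRNAs of MORC3 at 0.93, BMPR2 at 0.98 and FAM188A at 0.99. Circle 3 came in place 14, and the median was 1.49. For host FPKM, those near to TLK1 among 2241 hosts in forebrain and cortex included TBC1D19 at 0.21 and SNORA63 at 0.23, and TLK2 came in place 386 at 0.62. In the regions table they were MEMO1 at 0.20, PAN3 at 0.26 and PHF8 at 0.27, and TLK2 came in place 49 of 1730 at 0.43. All libraries are shared between the profiles compared, and likeness over so few libraries is a description.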

How the data were processed

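Backsplice read counts per library were deposited per the file headers, in separate tables for the forebrain and cortex series and for 5 regions, with the authors' RPM (0 where a circRNA had 1 read) and the authors' FPKM of host genes. Other deposited columns, per the file headers, give unique reads and genomic length. The submitters' processing notes name Trim Galore, TopHat2, Cufflinks, Cuffdiff and build Sscrofa10.2 (susScr3). The circRNA caller is not given in the sources used here. Per the labels' protocols, RNA over 200 nt was depleted with Ribo-Zero and made into libraries with ScriptSeq v2. Positions are counted from 1, and exon annotation of this build was not used here.

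The members and gene lists were chosen with earlier results of these data known. Lines whose library reads did not add up to their total were left out of sums and tests, leaving 4997 and 3776 lines. Library totals were recovered as reads divided by RPM, and RPM was recomputed from counts and them. Levels have exact Poisson intervals, shares Clopper-Pearson intervals and ratios exact conditional intervals, at 95%, for counting error only. A count of 0 allows 3 reads. Reads carry no molecular identifiers. Tests used edgeR 4.0.16 (quasi-likelihood, at least 20 reads, recovered totals as library sizes) and limma 3.58.1 with trend on log2(FPKM + 1) (mean FPKM of at least 1) in R 4.3.3, with Benjamini-Hochberg adjustment over all features and a threshold of 0.05, and exact sign flips. DESeq2 1.42.0 was an alternative. Circles with at least 50 reads are given in every library, and the 3 circRNAs or hosts nearest in profile are named, except 1 host that is not reported here. All value columns were matched to a sample (0 were not). Other alternatives left out a minimum, a region or a stage, or scaled by circRNA reads or host FPKM.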

Additional observations from a re-analysis of the deposited data

Results flagged for a closer look

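The summed TLK1 circRNA level differed in direction between regions. Its log2 ratio of E115 to E60 was -2.02 in cortex and 1.61 in brain stem, with 1 library per region and day. The difference between the regions was not tested. All circRNA reads together gave -2.20 in cortex and 1.76 in brain stem. The TLK1 share of circRNA reads was 2.92% at E115 and 2.58% at E60 in cortex, and 1.74% and 1.93% in brain stem. By the lines of the forebrain and cortex table, the same cortex libraries had 2.02% at E115 and 2.23% at E60. The direction in cortex thus depends on the table, and neither difference was beyond counting error. Lines that add up hold 518 of 808 circRNA reads of the E60 brain stem and 5003 of 5343 at E115. The brain stem total, and the direction in which the share differed there, therefore depend on the lines kept.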

How the results depend on the processing

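No paired analysis was possible because each group has 1 library, so no replicates share a number across groups; days were instead compared with region as the block. Of 152 values recomputed under an alternative, 111 were kept, 32 moved and 9 reversed, and the cause of each change below was not tested. Kept meant the same direction and side of the threshold, or a value within counting error. Counts of calls were kept if within a set fold, and the paralogues' host ratio if its sign stayed. Using all lines could not move TLK1 sums, since every TLK1 line added up. Per circRNA read of the library, the TLK1 log2 ratio of E115 to E60 was 0.18 in the cortex of the regions table, -0.14 in the cortex of the other table, -0.15 in brain stem and -1.21 in cerebellum, and that of E60 to E23 was -0.042 for TLK1 and 0.31 for TLK2. Per host FPKM the ratio of E115 to E60 was -0.21 in cortex by the FPKM of the forebrain and cortex table. By the columns of the regions table it was -1.89 in cortex, -0.48 in basal ganglia, 0.38 in brain stem, 0.07 in cerebellum and 2.97 in hippocampus. The FPKM headings of cortex and hippocampus in the regions table are in doubt, so -1.89 and 2.97 may divide reads by the FPKM of another region. Over every TLK1 line with the shared end, which adds reads to the denominator, circle 1 had 46.5, 39.4, 43.5, 40.9, 36.5 and 40.7% from E23 to E115 and 28.7% in the E115 brain stem. The edgeR count called higher was 0 without a minimum of reads, with all lines, or with the cortex added, and 0 to 8 when 1 region was left out (8 without basal ganglia, 0 without each other). The count called lower was 1 with TMM or DESeq2, and 0 to 1 when 1 region was left out. Circle 2 had -0.46 with TMM, -0.40 with DESeq2 and -0.21 with the cortex added. TMM moved the median of all circRNAs to 0.34. The limma count of hosts higher at E115 was 100 without a minimum FPKM and 88 to 255 when 1 region was left out (88 without basal ganglia, 100 without brain stem), and the count lower was 17 (without basal ganglia) to 37. TLK1 FPKM had -0.35 to 0.40 when 1 region was left out, 0.40 without the columns headed hippocampus, and 0.58 without both doubtful pairs, an alternative chosen after seeing the data, under which TLK2 had 0.10. Without 1 stage, 108 (without E100; 113 without E115) to 271 hosts rose over the cortex series, and 86 (without E115; 124 without E100, 201 without E80) to 431 fell. Outside the cortex no library had more than 7 TLK2 circRNA reads, at 9.67 to 37.7 M library reads. The E115 brain stem had 2 in 37.7 M, while the E60 cortex had 46 in 21.4 M.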
